A study of Mus musculus with 2 samples.

Results

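Plasma cell-like barcodes were those that held at least 500 UMIs (unique molecular identifiers, each standing for 1 captured RNA molecule) and at least 15 UMIs in immunoglobulin genes or Jchain. The rule summed every gene symbol that starts with Igk, Igh or Igl, other than Ighmbp2, and added Jchain. It found 41 such barcodes, called members here, among 13692 barcodes of at least 500 UMIs from a control liver and 110 among 11871 from a liver labelled GS_KO, for loss of glutamine synthetase. Together these are 151 of 25563 barcodes. Members were thus chosen by their summed immunoglobulin and Jchain counts, and these counts are given as a description and support nothing by themselves.

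Each library came from the liver of 1 mouse without tumours, and both mice carried 2 floxed Glul alleles (Glul f/f), were 11 weeks old and were sampled 2 weeks after the virus. The control mouse received an AAV8 vector with GFP. The GS_KO mouse received an AAV8 vector with Cre, which removes sequence between the lox sites of Glul, the gene of glutamine synthetase. The sources used here do not name the promoter that drives Cre. Cells were released with collagenase II (0.3 mg/mL), and both hepatocytes and purified non-parenchymal cells entered the libraries, which the labels call both single-cell and single-nucleus. Since each group is 1 library of 1 mouse, no difference between them has a replicate check and no p-value is given. All intervals are exact 95% intervals that cover counting error only.

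Plasma cells are the antibody-secreting end stage of the B cell lineage. Each one joins 1 heavy chain variable gene and 1 light chain variable gene to constant genes, and the heavy chain constant gene sets the antibody class: Ighm for IgM, the Ighg genes for IgG, Ighe for IgE and Igha for IgA. The J chain, made from Jchain, links IgA and IgM into polymers. Making antibody at a high rate takes a large endoplasmic reticulum (ER) with its translocation pore, chaperones, disulfide isomerases and degradation machinery. In the liver, IgA can be carried into bile, and IgA plasma cells are best known from the gut.

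The rule summed over variable genes without regard to which one a barcode held, so the variable genes of the most frequent pairs are printed from the GENCODE annotation of GRCm38, the assembly also called mm10. The first 300 bases of each coding sequence are shown. Capitals mark the leader exon from the start codon, which encodes most of the signal peptide, and lower case marks the second exon, which encodes the antigen-binding variable part. Ighv1-81 and Igkv3-5 led 22 GS_KO members, and Ighv1-9 with Igkv10-96 or Igkv6-32 led 8 control members. These are reference sequences, not sequences read from the members. Coding sequence of Ighv1-81 lies at chr12:115920279-115920712 on the minus strand, of Igkv3-5 at chr6:70663298-70663895 on the plus strand, of Ighv1-9 at chr12:114583569-114584002 on the minus strand, of Igkv10-96 at chr6:68631963-68632430 on the minus strand and of Igkv6-32 at chr6:70074024-70074584 on the minus strand.
Ighv1-81: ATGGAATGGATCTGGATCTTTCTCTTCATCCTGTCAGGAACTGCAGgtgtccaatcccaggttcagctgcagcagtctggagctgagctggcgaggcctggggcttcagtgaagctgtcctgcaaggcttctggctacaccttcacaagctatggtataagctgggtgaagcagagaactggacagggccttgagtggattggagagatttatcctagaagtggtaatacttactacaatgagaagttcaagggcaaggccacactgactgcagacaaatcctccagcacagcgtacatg
Igkv3-5: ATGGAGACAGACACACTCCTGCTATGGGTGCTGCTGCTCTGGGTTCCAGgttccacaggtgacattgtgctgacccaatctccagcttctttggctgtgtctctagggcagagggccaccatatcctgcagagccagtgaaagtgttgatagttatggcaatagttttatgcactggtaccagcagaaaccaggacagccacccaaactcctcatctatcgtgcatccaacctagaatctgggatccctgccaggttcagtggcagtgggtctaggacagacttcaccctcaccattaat
Ighv1-9: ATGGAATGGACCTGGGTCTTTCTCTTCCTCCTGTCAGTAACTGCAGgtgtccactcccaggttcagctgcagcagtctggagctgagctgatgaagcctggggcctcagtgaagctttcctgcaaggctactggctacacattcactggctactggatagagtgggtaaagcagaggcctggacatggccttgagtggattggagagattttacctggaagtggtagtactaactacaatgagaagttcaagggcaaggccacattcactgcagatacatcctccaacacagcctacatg
Igkv10-96: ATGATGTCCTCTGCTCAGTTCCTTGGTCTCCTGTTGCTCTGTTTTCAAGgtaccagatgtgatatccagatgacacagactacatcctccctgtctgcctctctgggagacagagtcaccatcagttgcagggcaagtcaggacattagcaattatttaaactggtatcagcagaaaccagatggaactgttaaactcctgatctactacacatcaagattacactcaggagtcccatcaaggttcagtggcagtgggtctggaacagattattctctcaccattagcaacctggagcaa
Igkv6-32: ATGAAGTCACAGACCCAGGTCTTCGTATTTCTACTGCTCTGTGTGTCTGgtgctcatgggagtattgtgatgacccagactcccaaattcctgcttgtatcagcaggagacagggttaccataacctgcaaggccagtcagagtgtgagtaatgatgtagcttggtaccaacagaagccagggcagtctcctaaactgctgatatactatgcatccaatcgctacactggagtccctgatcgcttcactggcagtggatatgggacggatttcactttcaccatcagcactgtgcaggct
The coding sequences of both leading heavy genes, Ighv1-81 and Ighv1-9, were 88.0% identical. The light genes differed more, with 66.3% identity between Igkv6-32 and Igkv10-96 and 65.7% between Igkv3-5 and Igkv10-96.

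The libraries as a whole held 61635695 UMIs in 166037 control barcodes and 57973740 UMIs in 175937 GS_KO barcodes. The labels state a minimum of 10000 cells, beside the 13692 and 11871 barcodes that held at least 500 UMIs. Glul stood at 120 CPM, counts per 1000000 UMIs (113 to 126), in the other control barcodes of at least 500 UMIs and at 29.0 (25.6 to 32.8) in the other GS_KO barcodes. The matrices shared 8108 barcode sequences. They included 4 members of each library, and 1 sequence was a member in both. That sequence held Ighm with Ighv1-64 and Igkv6-20 for the control and Ighg2b with Ighv1-22 and Igkv3-10 for GS_KO.

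Members took a median of 37.4% of their UMIs from immunoglobulin genes and Jchain for the control and 43.6% for GS_KO. Control members held 19 to 693 such UMIs (median 252) among 503 to 1460 UMIs in all (median 725). GS_KO members held 37 to 945 (median 303) among 504 to 1375 (median 730.5). Total UMIs were thus much alike in the libraries, and only 5 control and 15 GS_KO members reached 1000 UMIs. The 3 control barcodes nearest to the minimum of 15 held 19, 48 and 61 on the inside and 10, 5 and 3 on the outside. In the GS_KO library they held 37, 41 and 64 inside and 8, 7 and 6 outside, so few barcodes lay near the limit.

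**Figure D1:**
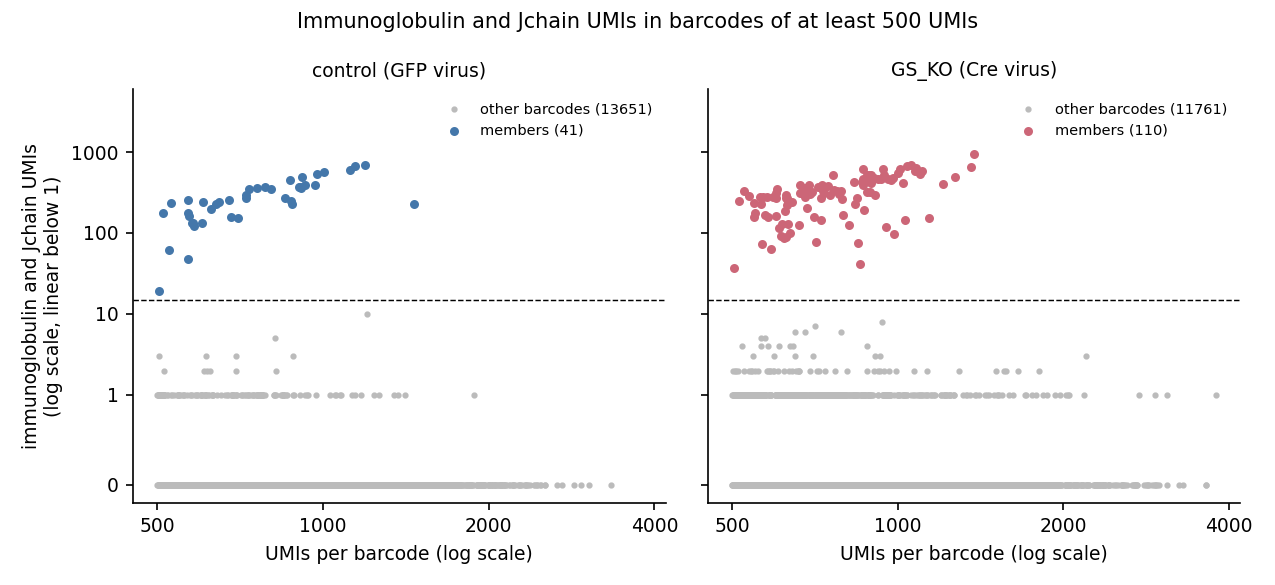
Immunoglobulin and Jchain UMIs (y axis, log scale, linear below 1) against all UMIs (x axis, log scale) in barcodes of at least 500 UMIs. Each point is 1 or more barcodes with the same counts, coloured points are members, and the dashed line is the minimum of 15. Other barcodes reached 10 for the control and 8 for GS_KO, below the dashed line.

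Members made up 0.299% of control barcodes of at least 500 UMIs (0.215 to 0.406) and 0.927% of GS_KO barcodes (0.762 to 1.12), a ratio of 3.09 (2.14 to 4.54). Immunoglobulin and Jchain RNA was also higher outside the members in the GS_KO library. The other barcodes held 18.4 CPM of it for control (15.8 to 21.2) and 83.8 CPM for GS_KO (77.9 to 90.0), and barcodes of 200 to under 400 UMIs held 36.4 and 175 CPM, a ratio of 4.80 (4.54 to 5.09). Single barcodes of the latter range held up to 76 such UMIs for control and 175 for GS_KO. Some of them thus reached the rule's minimum of 15 immunoglobulin and Jchain UMIs. The part of the RNA outside the members in the member share was not tested. Differences between the mice, between the cell isolations and between the viruses cannot be told apart.

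Kappa light chain variable genes gave most of the member immunoglobulin and Jchain UMIs, 69.9% for the control and 65.8% for GS_KO. Heavy chain variable genes gave 13.9% and 18.1%, heavy constant genes 5.49% and 4.22%, the kappa constant gene Igkc 4.89% and 3.15%, and Jchain 4.80% and 6.92%. Lambda variable genes gave 0.476% and 1.31%, and lambda constant genes 0.551% and 0.462%. Joining and diversity segments had no UMI. The libraries are 5-prime libraries, which read from the start of the transcript, and the variable part is at that end of an antibody transcript. Igkc was detected in 40 of 41 control and 106 of 110 GS_KO members, and Jchain in 40 and 109. Mzb1, which helps fold IgM in the ER, was detected in 19 and 71 members.

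The heavy chain constant genes lie side by side on chromosome 12, minus strand, from Ighm (chr12:113418558-113422730) down to Igha (chr12:113254830-113260236). Igha differed most between the libraries in percentage points, and less by ratio than Ighg1 and Ighg3. It held 117 of the heavy constant UMIs of control members, or 17.8% (14.96 to 20.95), and 651 of those of GS_KO members, or 43.8% (41.2 to 46.3). Ighg2b held 173 UMIs (26.3%) for the control and 321 (21.6%) for GS_KO. Ighm, the constant gene of unswitched B cells, held 140 UMIs (21.3%) and 173 (11.6%). Ighg1 held 118 (18.0%) and 90 (6.05%), Ighg2c 57 (8.68%) and 198 (13.3%), and Ighg3 52 (7.91%) and 42 (2.82%). Ighe had 13 UMIs, all in 1 GS_KO member. Ighd, made by naive B cells and usually lost in plasma cells, had none in 657 control and 1488 GS_KO heavy constant UMIs.

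Each member was given the class of its leading heavy constant gene where that gene had at least 2 UMIs and more than the next. IgA led 8 of 41 control members, 19.5% (8.82 to 34.9), and 55 of 110 GS_KO members, 50% (40.3 to 59.7). IgG led 24 control members, 58.5% (42.1 to 73.7), with 12 led by Ighg2b, 6 by Ighg2c, 3 by Ighg1 and 3 by Ighg3. It led 43 GS_KO members, 39.1% (29.9 to 48.9), with 21 led by Ighg2c, 14 by Ighg2b, 6 by Ighg1 and 2 by Ighg3. IgM led 9 control members, 21.95% (10.6 to 37.6), and 8 GS_KO members, 7.27% (3.19 to 13.8). In the GS_KO library 1 member was led by Ighe, and 3 had no leader. These intervals cover the counting of barcodes in 1 library each, and barcodes that share a variable gene pair may not be independent.

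**Figure D2:**
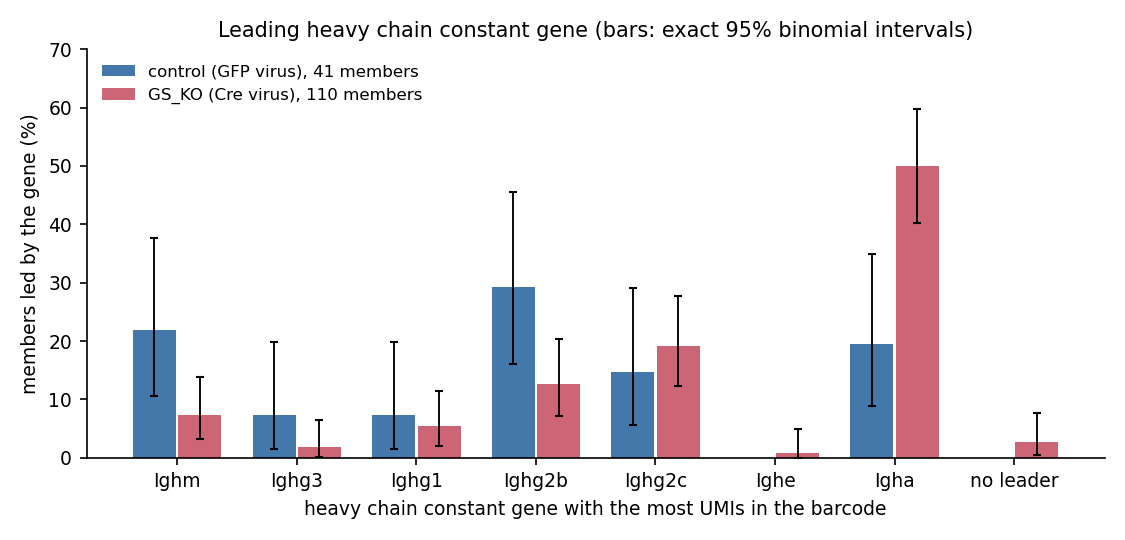
Share of members (y axis, percent) whose leading heavy chain constant gene is the one on the x axis, in 41 control and 110 GS_KO members. Bars are shares with exact 95% binomial intervals. Igha led 19.5% of control and 50% of GS_KO members.

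The size of the barcodes and the repeated variable gene pairs both moved with this share. IgA-led members were smaller than IgG-led ones in the GS_KO library, with median totals of 666 and 865 UMIs, while the control medians were 805 and 729.5. Among members of at least 1000 UMIs, Igha held none of 157 heavy constant UMIs in 5 control members, which allows a share of up to 1.91%, and 20 of 260 (7.69%) in 15 GS_KO members. Without the members of the most frequent pair, IgA led 40 of 88 GS_KO members, 45.5% (34.8 to 56.4), and without the 2 tied control pairs it led 6 of 33, 18.2% (6.98 to 35.5). These intervals meet only from 34.8 to 35.5, and their meeting does not compare the shares. With 1 barcode kept per pair, the Igha share of heavy constant UMIs was 19.4% in 34 control and 32.4% in 67 GS_KO members.

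Light chains were almost all kappa. Kappa genes held 98.6% of light chain UMIs in control members (98.4 to 98.9) and 97.5% in GS_KO members (97.3 to 97.7). The lambda exception was 1 GS_KO member led by Ighm and Ighv1-82, with 205 UMIs of Iglv2, 73 of Iglv1 and none of Igkc. Iglc2, a lambda constant gene, was present at low counts elsewhere, in 21 control and 65 GS_KO members, with medians of 1 UMI in both libraries. In the 41 control members and the other 109 GS_KO members, kappa genes held at least 93.1% and 86.8% of light chain UMIs.

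Nearly every member was led by 1 light chain variable gene. The leading gene held a median of 99.4% of light variable UMIs for the control and 99.3% for GS_KO, and passed 95% in 32 of 41 and 93 of 110 members. A second light variable gene held at least 20% in 7 control and 4 GS_KO members. Of those 7, 4 were the Ighv1-9 and Igkv6-32 members described below. The leading heavy variable gene held a median of 82.6% of heavy variable UMIs in the 37 control members with at least 5 such UMIs and 84.3% in 107 GS_KO members. Of the heavy variable UMIs outside the leading gene, 94.7% of 342 for the control and 99.2% of 1309 for GS_KO came from genes of the same numbered family. The leading and second heavy genes of a member had a median identity of 94.0% over 56 GS_KO members and 93.4% over 15 control members, against 64.7% over all 3081 pairs of the 79 heavy genes with a complete reference sequence. Reads of near-identical variable genes can be split between them in counting, so a single heavy gene name is uncertain within its family.

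The most abundant heavy variable genes were Ighv1-9 in control members, with 468 UMIs or 28.1% of all heavy variable UMIs, and Ighv1-81 in GS_KO members, with 1587 UMIs or 24.9%. Next in the control came Ighv2-9-1 with 172, Ighv2-2 with 117, Ighv1-70 with 65 and Ighv9-1 with 57, and in the GS_KO library Ighv1-82 with 603, Ighv1-66 with 443, Ighv5-17 with 344 and Ighv1-22 with 255. Single barcodes gave much of this: 117 of the Ighv2-9-1 UMIs and 86 of the Ighv2-2 UMIs were in 1 control member each. Among light genes, Igkv1-110 led the control with 1625 UMIs, before Igkv10-96 with 882, Igkv6-15 with 700, Igkv6-32 with 607 and Igkv3-1 with 526. Igkv3-5 led the GS_KO library with 2912 UMIs, before Igkv3-2 with 1953, Igkv15-103 with 1920, Igkv12-44 with 1621 and Igkv12-98 with 1373.

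Some pairs of leading heavy and light variable genes led several members. There were 30 distinct pairs in 37 control members and 64 in 107 GS_KO members, and none was found in both libraries. Single genes were shared. Of 23 control and 34 GS_KO leading heavy variable genes, 15 led in both, as did 13 of 23 and 41 leading light genes. The number of shared pairs to expect was not tested, so their absence does not show different repertoires. In the control, 3 pairs led 2 or more members and covered 10 members. In the GS_KO library 10 pairs did so and covered 53. The largest, Ighv1-81 with Igkv3-5, led 22 members: 15 IgA, 5 IgG (all Ighg2c) and 2 with no leading constant gene. Next were Ighv1-66 with Igkv19-93 in 6 members, Ighv1-14 with Igkv6-15 in 5, Ighv1-82 with Igkv12-98 in 5, Ighv1-7 with Igkv12-44 in 4 and Ighv5-17 with Igkv15-103 in 3. The annotation calls Ighv1-14 a pseudogene, and in its 5 members it held 51.6% to 59.1% of heavy variable UMIs, with Ighv1-83, also annotated as a pseudogene, second. Genes annotated as pseudogenes led 5 control and 12 GS_KO members, Ighv1-70 among them, so these gene names are uncertain. Each of these 6 pairs held both IgA-led and IgG-led members. A shared pair does not show a shared cell of origin, since the joined segment between V and J is not in the counts.

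**Figure D3:**
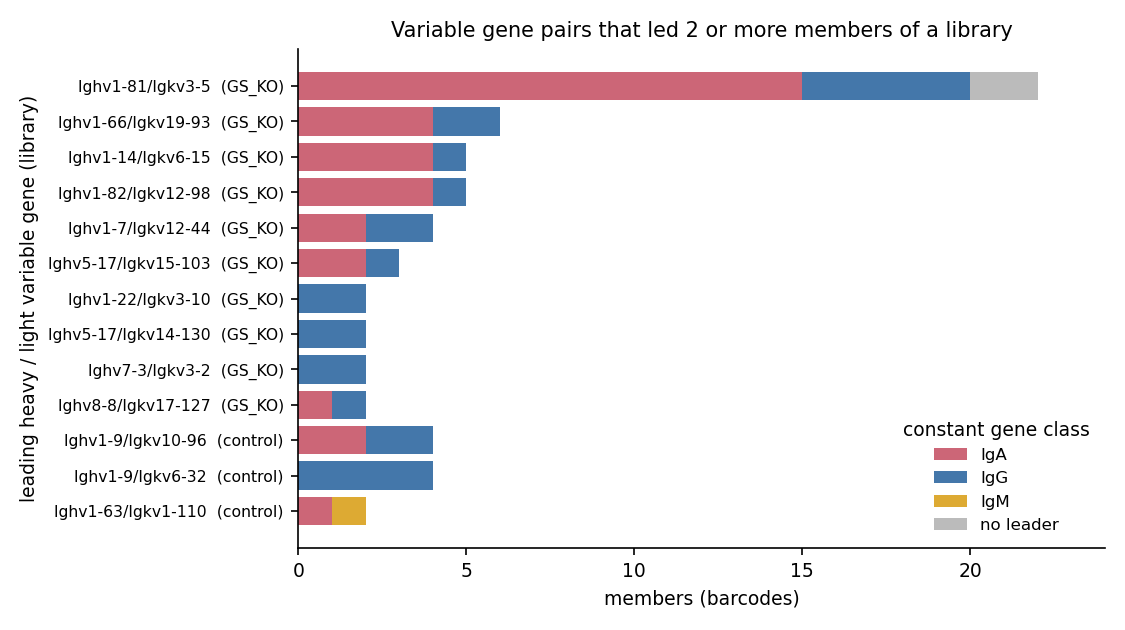
Number of members (x axis) led by each pair of heavy and light variable genes (y axis, library in brackets), for the 13 pairs that led 2 or more members. Colours give the class of the leading heavy constant gene, and Ighv1-81 with Igkv3-5 reaches 22 members, 15 of them IgA.

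Within the 22 members of Ighv1-81 and Igkv3-5, the heavy gene held 6 to 154 UMIs (median 70) and the light gene 25 to 253 (median 123). Their total UMIs ran from 504 to 1210, and the leading heavy gene held at least 87.0% of heavy variable UMIs in each. The counts of both genes spread widely over these members. The 4 control members of Ighv1-9 and Igkv6-32 were closer together. They held 577, 680, 702 and 581 UMIs in all, 56, 68, 63 and 54 of Igkv6-32, and 35, 41, 41 and 43 of Igkv10-96 as the second light gene. All 4 were led by Ighg2b, and none had a UMI of Mzb1. A further 4 members with Ighv1-9 were led by Igkv10-96, which held at least 98.8% of their light variable UMIs, and 2 were IgA and 2 Ighg2b. The ninth Ighv1-9 member was led by Igkv4-53. Whether some of these barcodes hold RNA of the same cell, or of more than 1 cell, was not tested.

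Outside the rule, levels are given as CPM over UMIs that are not in the rule's genes, so that the antibody RNA itself does not lower every other gene. Of 1090 genes with at least 10 UMIs in members of both libraries together, 366 (33.6%) were at least 2-fold higher in control members than in the other control barcodes, 374 (34.3%) in GS_KO members, and 275 (25.2%) in both. At least 2-fold lower were 75 (6.88%) and 67 (6.15%). Since UMIs in members decide which genes are counted, genes low in members are missing from these shares. Among genes with at least 20 UMIs in members, the 10 with the highest smaller ratio of the libraries were Mzb1, Gm30211, Slpi, Cd79a, Derl3, Slamf7, Ly6c2, Pafah1b3, Eaf2 and Creld2. Mzb1 had 33 UMIs in control members against 2 in all other control barcodes, and 195 against 6 in the GS_KO library. Its levels were 1674 CPM (1152 to 2351) and 3852 CPM (3330 to 4432) in members. With every barcode thinned to 500 UMIs, it would be seen in 35.4% of control and 53.9% of GS_KO members and in 0.00777% and 0.0357% of other barcodes, whose median depths were 663 and 671 UMIs. Gm30211 is annotated as a long noncoding RNA at chr6:70719074-70740554 that spans Igkc on the same strand, so its 120 and 413 member UMIs cannot be told apart from Igkc RNA.

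Slpi, which encodes a secreted inhibitor of leukocyte proteases, was the most abundant of these genes. It had 301 UMIs in control members and 1501 in GS_KO members, against 10 and 107 in all other barcodes. Its levels were 15271 CPM and 29649 CPM. Cd79a, a signalling part of the B cell receptor, had 3 and 36 UMIs in members against 1 and 9 elsewhere. Derl3, an ER degradation factor, had 7 UMIs in control members and none in the other control barcodes, and 13 against 4 in the GS_KO library. With 3 counts set for the other control barcodes as a group, it was 1193-fold higher in control members. That value leaves out the counting error of the 7 UMIs and is not a bound. Slamf7, a surface receptor of plasma cells and natural killer cells, had 9 against 1 and 14 against 12. Ly6c2, a surface protein of monocytes and plasma cells, had 11 against 4 and 15 against 18. Pafah1b3, a subunit of a platelet-activating factor hydrolase, had 11 against 18 and 11 against 25. Eaf2, a transcription elongation factor, had 2 against 28 and 19 against 54. Creld2, an ER disulfide isomerase, had 12 against 159 and 43 against 208.

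Slpi and Jchain were uneven among antibody classes, a comparison chosen after the values were seen. In the control, Slpi held 0 to 5 UMIs in IgA-led members (median 2.5), 0 to 70 in IgG-led members (median 5) and 0 to 7 in IgM-led members (median 0). In the GS_KO library it held 0 to 53 in IgA-led (median 1), 0 to 108 in IgG-led (median 15) and 0 to 20 in IgM-led members (median 1). The ranges overlap in both libraries, and the highest members were IgG-led in both. Summed over members, the CPM of Slpi was 4.10-fold higher in IgG-led than IgA-led control members (2.60 to 6.82) and 5.43-fold higher in GS_KO members (4.74 to 6.25). Within the pair Ighv1-81 and Igkv3-5 alone, the ratio of 5 IgG-led to 15 IgA-led members was 2.17 (1.62 to 2.92), and within the tied control pairs it was 1.14 (0.408 to 3.93). Without the members of these pairs, the ratio was 5.04 (3.00 to 9.14) in the control and 6.95 (5.84 to 8.32) in the GS_KO library. By median, Slpi was highest in Ighg2c-led members, at 12.5 UMIs in 6 control and 22 in 21 GS_KO members. By summed level, Ighg2c-led members were highest in the GS_KO library at 77029 CPM, but in the control the 3 Ighg1-led members, at 49407 CPM, were above the Ighg2c-led ones at 31516 CPM. One Ighg1-led member held 70 UMIs.

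Jchain differed the other way in the GS_KO library. IgA-led members held 1 to 74 Jchain UMIs (median 29) and IgG-led members 0 to 56 (median 14), a ratio of IgG to IgA in CPM of all UMIs of 0.490 (0.448 to 0.536). In the control the medians were 15.5 and 13.5 UMIs, with a ratio of 0.804 (0.652 to 0.998). Jchain is one of the rule's genes. Of 417 genes compared between IgG-led and IgA-led members, 59 (14.1%) were at least 2-fold higher in the control, 11 (2.64%) in the GS_KO library and 4 (0.959%) in both: Slpi, Creld2, Dpyd and Acat1. Only Slc38a3, a glutamine transporter, was at least 2-fold lower in both (0.24%). Apart from Slpi these rest on few counts. Creld2 had 0 UMIs in control IgA-led and 8 in IgG-led members, and 11 and 26 in the GS_KO library.

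**Figure D4:**
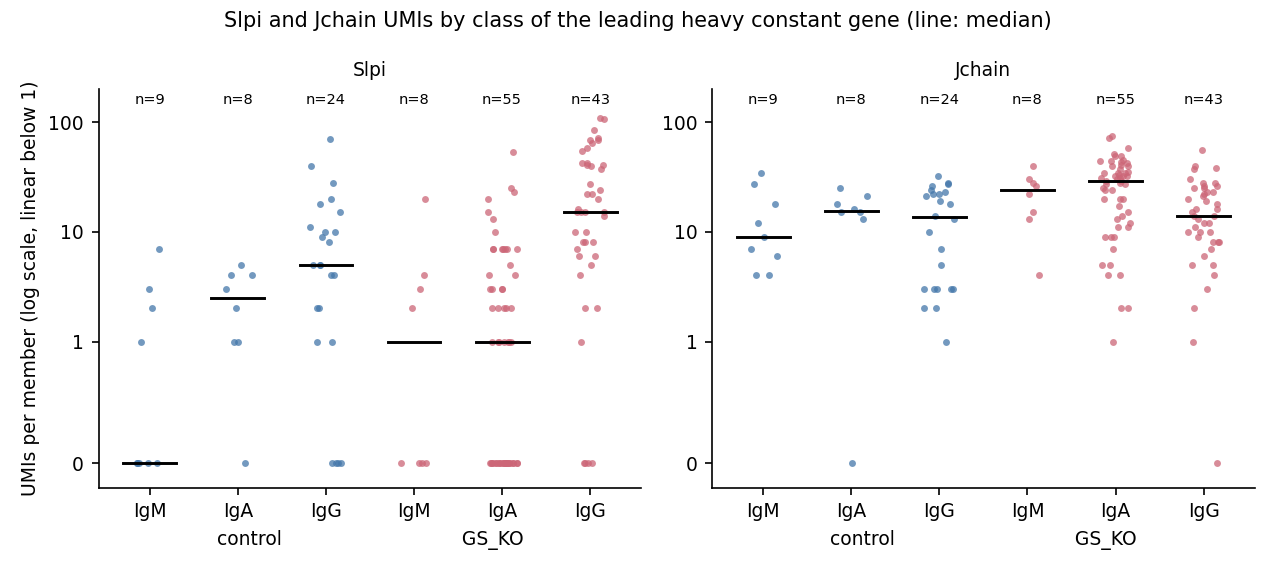
UMIs of Slpi (left) and Jchain (right) in each member (y axis, log scale, linear below 1), by library and class of the leading heavy constant gene (x axis). Points are members and lines are medians. The median of Slpi is 15 in GS_KO IgG-led members and 1 in GS_KO IgA-led members, and that of Jchain is 14 and 29.

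Summed over 30 plasma cell identity genes, members held 5073 CPM against 574 CPM in other control barcodes and 8415 CPM against 749 CPM in the GS_KO library, log2 ratios of 3.14 (2.84 to 3.43) and 3.49 (3.35 to 3.63). The member sums were 100 UMIs for the control and 426 for GS_KO. The Mzb1 UMIs given above are a large part of both sums. With no minimum of UMIs, 15 of the 30 were at least 2-fold higher in control members, 18 in GS_KO members and 13 in both. The share over all genes was not counted at this setting, so these counts have no background beside them. At least 2-fold lower were 10 of the 30 in control members and 5 in GS_KO members, where a gene with no UMI can count as lower. No UMI was found for 14 of the 30 in control members and for 8 in GS_KO members. Xbp1, the transcription factor that expands the secretory apparatus, had a log2 ratio of member to other barcodes of 2.23 (0.78 to 3.36) for the control and 3.07 (2.61 to 3.49) for GS_KO. Txndc5, a disulfide isomerase that plasma cells make in quantity, was at 3.28 (2.06 to 4.27) and 3.54 (2.87 to 4.15). Pou2af1, the B lineage coactivator, had 4 and 10 UMIs in members and 0 and 1 in the others, and Tnfrsf17, the receptor BCMA that sustains plasma cells, had 4 and 4 against 0 and 1. Ell2, an elongation factor that favours secreted antibody, did not stand apart, with log2 ratios of -0.36 and 0.23. Prdm1, the repressor that ends the B cell program, had 1 and 6 UMIs. Sdc1, the classical surface marker CD138, had 0 and 2 UMIs in members, and Irf4 had 0 and 3, so both were near the limit of detection at this depth.

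Markers of B cells before the plasma cell stage were mixed. Of 19 listed B cell genes, 7 had UMIs in control members and 12 in GS_KO members. Summed over the 19, members held 3704 CPM against 201 CPM in other control barcodes and 6815 CPM against 2566 CPM in the GS_KO library. Cd22 and Pax5 had no UMI in any member, which with 3 counts allows up to 152 CPM for the control and 59.3 CPM for GS_KO for each. Ms4a1 (CD20) had 3 and 6 UMIs and Cd79b had 1 and 13. Cd74, the invariant chain of antigen presentation, had a UMI in 26 of 41 control members and 81 of 110 GS_KO members, with 0 to 7 and 0 to 8 UMIs per member. Its log2 ratio to other barcodes was 6.03 (5.599 to 6.43) for the control and 1.56 (1.35 to 1.77) for GS_KO, whose other barcodes held 1257 CPM against 43.6 CPM in the control. Of 10 proliferation genes, 2 had UMIs in control members and 10 in GS_KO members, with sums of 4 and 39 UMIs. In CPM these sums were 203 (55.3 to 520) for the control and 770 (548 to 1053) for GS_KO. Their log2 ratios to other barcodes were 1.58 (-0.30 to 2.94) and 2.84 (2.34 to 3.30).

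Summed over all 95 secretory genes in the files, members held 27244 CPM against 9791 CPM in other control barcodes and 35061 CPM against 9828 CPM in the GS_KO library. The log2 ratios of these sums were 1.48 (1.35 to 1.60) and 1.83 (1.77 to 1.90). With no minimum of UMIs, 46 of the 95 were at least 2-fold higher in control members and 15 at least 2-fold lower, of which 12 had no UMI, and in GS_KO members 61 were higher and 4 lower. The share over all genes was not counted at this setting, here or for the groups of secretory genes below. Among genes kept by their UMIs over all barcodes (at least 1000), a choice made after seeing the data, 25 of 57 secretory genes were at least 2-fold higher in control members, 33 in GS_KO members and 23 in both. The same over all 3185 such genes was 12.2%, 10.1% and 5.53%. Over the 61 secretory genes with at least 10 UMIs in members the median log2 ratio was 1.59 and 2.00, beside 0.43 and 0.45 over all 1090 genes, and over the 57 genes it was 1.09 and 1.25. The former medians leave out genes low in members. With genes at 0 counts set to 3 counts, the secretory medians were 1.56 and 1.95. In CPM of all UMIs, antibody RNA included, every ratio to other barcodes is lower by 0.68 for the control and 0.76 for GS_KO, and the secretory medians become 0.90 and 1.23.

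**Figure D5:**
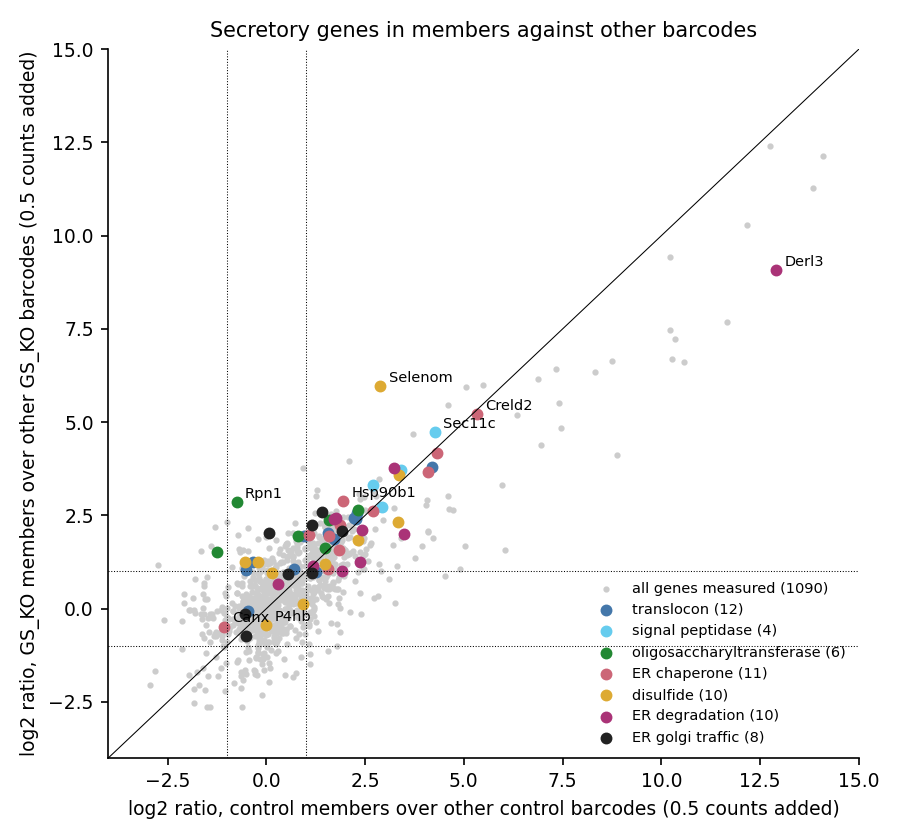
Log2 ratio of members to other barcodes in the control (x axis) and GS_KO library (y axis), with 0.5 counts added, for 1090 genes (grey) and 61 secretory genes (coloured by group). Dotted lines mark 2-fold and the solid line equal ratios. The genes shown are those with at least 10 UMIs in members, so genes low in members are missing. Sec11c and Creld2 lie beyond 2-fold in both libraries and Canx does not, and Derl3 has no UMI in other control barcodes, so its place on the x axis depends on the added counts.

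The signal peptidase complex, which cuts off signal peptides, had 4 of its 5 genes at least 2-fold higher in both libraries with no minimum of UMIs, and summed log2 ratios of 3.05 (2.62 to 3.44) and 3.37 (3.14 to 3.58). Sec11c, a catalytic subunit, was at log2 ratios of 4.22 (3.33 to 4.98) and 4.73 (4.32 to 5.11), and Spcs1 at 3.37 (2.70 to 3.96) and 3.71 (3.31 to 4.08). Of 19 genes of the translocon and signal recognition, 8 passed in both, with summed ratios of 1.75 and 1.99. Ssr4, a subunit of the translocon-associated complex, had the most UMIs of the group, with 54 and 109, and was at 4.18 (3.76 to 4.57) and 3.79 (3.50 to 4.07). Sec61b, a subunit of the pore, was at 2.13 (0.81 to 3.18) and 2.40 (1.64 to 3.08). Of 11 genes of the oligosaccharyltransferase, which adds sugar chains, 3 passed in both, with summed ratios of 1.03 and 1.73. Krtcap2 was at 2.23 and 2.62 and Dad1 at 1.39 and 1.58, and Rpn1 had 0 UMIs in control and 15 in GS_KO members.

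Of 15 ER chaperone genes, 10 were at least 2-fold higher in both libraries, and their summed log2 ratios were 1.64 (1.42 to 1.85) and 2.21 (2.10 to 2.31). Hsp90b1 (GRP94) had 67 UMIs in control and 314 in GS_KO members, at log2 ratios of 1.93 (1.56 to 2.27) and 2.88 (2.71 to 3.04). Hspa5 (BiP), which holds unfolded heavy chains, was at 1.56 (0.98 to 2.08) and 1.93 (1.66 to 2.19). Creld2 was at 5.27 and 5.21, Manf at 4.03 and 3.66, and Sdf2l1 at 4.15 and 4.14. Canx, the lectin chaperone calnexin, was not, at -1.30 (-3.58 to 0.25) and -0.54 (-1.55 to 0.30). Of 13 disulfide isomerases and related genes, 4 passed in both, with summed ratios of 0.93 and 0.98. Prdx4 was at 3.26 and 2.26 and Pdia4 at 2.25 and 1.81, whereas P4hb stood at -0.10 (-1.41 to 0.95) and -0.50 (-1.41 to 0.28). ER degradation gave 8 of 13, with summed ratios of 1.71 and 1.72, and ER-to-Golgi traffic 3 of 19, with 0.57 and 0.89. Among them were Selenos at 2.34 and 2.07 and Tmed10 at 1.84 and 2.05. Among genes with at least 1000 UMIs over all barcodes, 5.53% of all genes passed in both libraries. By group, 2 of 3 signal peptidase, 5 of 11 translocon and 2 of 5 oligosaccharyltransferase genes did so. So did 6 of 10 chaperone, 2 of 8 disulfide and 5 of 7 ER degradation genes. ER-to-Golgi traffic gave 1 of 13, near the share over all genes.

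Promoters were searched because many ER genes were higher in members together. The ER stress response element, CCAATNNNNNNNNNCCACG on either strand, lay between 250 bases before and 50 bases after the start of 8 of the 50 compared secretory genes that have a promoter in the RefSeq table of GRCm38.p6 (16%): Calr, Canx, Creld2, Derl3, Dnajc3, Hsp90b1, Hspa5 and Pdia6. It lay there in 37 of 27025 promoters of all genes (0.137%) and in 8 of 852 promoters of all genes compared (0.939%). The latter 8 are the same genes, so no compared gene outside the secretory lists held it. Since the element is named for the ER stress response and the lists hold ER genes, its share supports nothing by itself. A match is only a description, and Canx, which holds it, was not higher in members. Sdf2l1 held no match in the 250 bases before its start. The octamer ATGCAAAT was searched as well. It lay in 1 of 50 secretory promoters (2%), 532 of 27025 promoters of all genes (1.97%) and 10 of 852 of all genes compared (1.17%). Jchain and Slpi held no octamer in the 250 bases before the start. The 250 bases before the start of Creld2 and Derl3, genes among the 10 furthest above other barcodes, are printed with the matching letters in capitals. Creld2 is on the plus strand at chr15:88819396-88819645 and Derl3 on the plus strand at chr10:75893148-75893397, with the match reading on the opposite strand in both.
Creld2: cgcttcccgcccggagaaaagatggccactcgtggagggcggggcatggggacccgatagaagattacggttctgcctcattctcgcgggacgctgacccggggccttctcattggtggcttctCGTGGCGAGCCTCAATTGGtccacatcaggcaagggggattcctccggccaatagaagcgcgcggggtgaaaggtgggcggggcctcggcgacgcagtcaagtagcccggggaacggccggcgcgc
Derl3: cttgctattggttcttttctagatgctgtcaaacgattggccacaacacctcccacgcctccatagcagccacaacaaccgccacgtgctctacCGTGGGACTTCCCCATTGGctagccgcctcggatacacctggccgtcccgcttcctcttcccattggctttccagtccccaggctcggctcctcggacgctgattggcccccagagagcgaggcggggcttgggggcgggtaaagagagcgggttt

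Between the libraries, the median secretory gene differed little in members. Summed over the 95 genes, the level was 27244 CPM (24988 to 29648) in control and 35061 CPM (33449 to 36731) in GS_KO members. The median log2 ratio of GS_KO to control members over the 61 genes was 0.36, against -0.08 over all 1090 genes. Of the 61, 39 were above 0 and 22 below. At least 2-fold higher were 10 and at least 2-fold lower 1 of the 61, beside 148 (13.6%) and 146 (13.4%) of all 1090 genes. Hsp90b1 was at 0.87 (0.48 to 1.27) in members and at -0.09 in the other barcodes, and Hspa5 at 0.74 (0.14 to 1.37) and 0.36. The median was 0.04 with 1 barcode kept per variable gene pair and 0.02 with 2 counts added. Mzb1 was at 1.20 (0.66 to 1.78) in members and 1.53 in the other barcodes, and Slpi at 0.96 (0.78 to 1.14) and 3.51.

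The genes furthest apart between GS_KO and control members, among those with at least 20 UMIs, also differed in the other barcodes with few exceptions. The 8 highest were Lcn2, Saa1, Saa2, Apcs, Orm2, Saa3, C6 and Scd1. Saa1, a serum amyloid, had 1 UMI in control and 159 in GS_KO members, a log2 ratio of 5.95 (3.45 to 11.26), and stood at 5.68 in the other barcodes. Lcn2, an iron-carrier-binding protein, had 0 and 55 UMIs in members and 8.04 and 1442 CPM in the other barcodes. The 8 lowest were Alas1, Mt1, Prlr, Hibadh, Tat, Abcc2, Cyp2a5 and Ddt. Alas1, the first enzyme of heme synthesis, was at -2.95 (-4.22 to -1.81) in members and -3.07 in the other barcodes. Mt1, a metallothionein, was at -2.53 (-3.48 to -1.64) and -2.03. All 8 genes highest in GS_KO members were also higher in the other GS_KO barcodes, and 7 of the 8 lowest were also lower there. The exception was Abcc2, a bile canaliculus transporter, at -1.95 (-3.26 to -0.70) in members and 0.09 in the others.

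Hepatocyte RNA was present in the members at nearly the level of other barcodes. All 12 hepatocyte markers were detected in members of both libraries, and their sum was 87007 CPM in control members against 104468 CPM in the others and 97282 CPM against 98556 CPM in the GS_KO library. Alb was at 27396 and 26864 CPM in members. Stellate cell markers were higher in members than in others, by log2 ratios of 2.59 (2.17 to 2.98) and 1.41 (0.99 to 1.80), with 8 of 10 detected in both libraries and 53 UMIs in each. Kupffer cell markers were at 0.86 (-0.15 to 1.70) and 0.02 (-0.29 to 0.31), with Cd5l, Marco and Adgre1 among 6 of 12 at 0 in control members. T and natural killer cell markers gave 0 UMIs in control and 1 in GS_KO members. The part of this RNA in the results was not tested. Median mitochondrial shares of all UMIs were 3.76% and 3.45% in members and 6.84% and 4.66% in others. Of UMIs outside the rule's genes they were 6.27% and 5.92% in members, which is below the others in the control and above them in the GS_KO library. Malat1, a nuclear RNA, was at 9639 and 8316 CPM in members and 10374 and 23205 CPM in others. Against barcodes of 200 to under 400 UMIs, Malat1 was instead higher in GS_KO members, by a log2 ratio of 2.61.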

How the data were processed

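RNA counts per barcode of 2 mouse livers were analysed, 1 control and 1 GS_KO library, each of 1 mouse. The deposited matrices hold raw UMI counts made by the authors. The file headers name Cell Ranger 8.0.0, and the submitters' processing notes name mm10. The low minimum of 119 and 123 UMIs per barcode shows that barcodes with little RNA are included. No doublet caller was run, because members were chosen by a count rule and not by clusters.

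Members were barcodes of at least 500 UMIs with at least 15 UMIs over 395 immunoglobulin genes and Jchain. Members, gene lists and comparisons were chosen with earlier results of these data known. Counts were summed over members. Genes outside the rule were scaled per 1000000 UMIs outside the rule's genes, and log2 ratios of lists used 0.5 added counts and a minimum of 10 UMIs in members of both libraries together. With 1 library per group, a gene past 2-fold was counted and nothing was tested. Lists were also summed and counted with no minimum in members, a count that was not made over all genes. Intervals were exact 95% Poisson, Clopper-Pearson or conditional intervals. A count of 0 was set to 3 counts over the group for a fold.

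Named genes were all constant genes and Jchain, the 5 variable genes with the most UMIs per chain and library, genes of fixed lists, the 10 genes of at least 20 UMIs with the highest smaller ratio to other barcodes, and the 8 highest and 8 lowest between libraries. Genes named for antibody class, B cells and other cell types, and variable genes named as part of a pair, fell outside this rule or were chosen after their values were seen. Gene positions come from GENCODE M21 on GRCm38 and promoters from RefSeq. The tools were scipy 1.17.1, numpy 2.4.6, matplotlib 3.10.9 and pandas 2.3.3 in Python 3.11.15, and the counting steps were tested on simulated data. An item of the marker lists is not reported here. Alternatives changed the UMI and immunoglobulin minimums, the scale, the added counts, the reference barcodes and the members kept.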

Additional observations from a re-analysis of the deposited data

Results flagged for a closer look

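Barcodes under 500 UMIs were outside the rule, and some held as much immunoglobulin RNA as members. In the GS_KO library 37 of 164066 such barcodes (0.0226%) held at least 15 immunoglobulin and Jchain UMIs, against 16 of 152345 (0.0105%) in the control. They held a median of 67 such UMIs (15 to 280) in the GS_KO library and 39.5 (15 to 219) in the control, among median totals of 373 and 397 UMIs. IgA led 18 of the 31 GS_KO barcodes with a leading class, 58.1% (39.1 to 75.5), and 2 of the 10 control barcodes, 20% (2.52 to 55.6). A variable gene pair could be read in 27 GS_KO and 5 control barcodes. In 12 and 2 of these the pair also led a member of the same library, and 4 of the GS_KO barcodes held Ighv1-81 with Igkv3-5. The main comparisons did not count these barcodes as members. Some of them were among the smaller barcodes used above for immunoglobulin RNA outside the members and as a reference. The difference between the libraries was not tested.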

How the results depend on the processing

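No paired analysis was possible because each group is 1 library of 1 mouse, and no replicate could be left out. Of the main results under alternatives, 108 values stayed within the main 95% interval, 25 moved and 0 reversed. Only the secretory medians of members over other barcodes could be labelled reversed. The shares and the median of GS_KO over control members could only stay or move, so the 0 says nothing about them. For single named genes, 4753 stayed within 2-fold, 215 moved and 14 reversed. At a minimum of 300 UMIs per barcode, members were 0.0432% of control and 0.150% of GS_KO barcodes, the Igha share in GS_KO members was 46.5%, and the secretory medians over 67 genes were 1.11 for the control and 1.57 for GS_KO. At 1000 UMIs, which left 5 and 15 members, the Igha share was 0% and 7.69%, the leading heavy variable gene held a median of 64.2% in the control, the kappa share was 99.2% in the GS_KO library, and the secretory medians rested on 6 genes, at 3.81 and 3.92. In CPM of all UMIs the secretory medians were 0.90 and 1.23. With 2 counts added the secretory median was 2.06 in the control, and 0.018 for GS_KO over control members. Against barcodes of 200 to under 400 UMIs it was 1.57 in the GS_KO library. The alternatives that follow were chosen after seeing the data. With genes kept by at least 1000 UMIs over all barcodes, the secretory medians over 57 genes were 1.09 and 1.25. Without the most frequent variable gene pair, the Igha share was 14.4% for the control and 38.2% for GS_KO. With 1 barcode per pair, the GS_KO library had an Igha share of 32.4%, a kappa share of 97.2% and a median leading heavy share of 71.8%, and the secretory medians over 39 genes were 2.06 in the control and 0.044 for GS_KO over control members. The cause of these moves was not tested, apart from the smaller numbers of members and genes that each alternative leaves.

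Among the named genes that reversed, Malat1 in GS_KO members over other barcodes was at 0.20 with the 300 UMI minimum and 2.61 against the smaller barcodes. Irf4 for GS_KO over control members was at -0.053 with the 300 UMI minimum, and Irf4 at -0.039 with 2 counts added. With the 1000 UMI minimum, Apcs and Rpn2 in control members were at 1.97 and 1.65, and GS_KO over control members gave -1.49 for Tent5c, Rpn2, Edem2 and Tmed9 and -0.27 for Edem1. With 2 counts added, Apcs and Rpn2 in control members were at 0.49 and 0.74. Without barcode sequences found in both libraries, Ostc in control members was at -0.58. Depth limits genes of few UMIs such as Irf4, Sdc1 and Prdm1.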

Other observations

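Receptors that carry or bind antibody did not stand apart in members. Over Pigr, which carries IgA into bile, Fcgrt, Fcamr and Fcgr2b, members held 24 UMIs for the control and 46 for GS_KO, at log2 ratios to other barcodes of -0.05 (-0.70 to 0.52) and 0.01 (-0.44 to 0.43). Over 7 genes of ligands that attract or sustain plasma cells, members held 4 and 11 UMIs, at ratios of 0.29 (-1.59 to 1.65) and -0.57 (-1.57 to 0.27).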
